A study of Mus musculus with 8 samples.

Results

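The erythroid and megakaryocyte transcription factors described here are 10 genes, Gata1, Gata2, Klf1, Tal1, Gfi1b, Nfe2, Zfpm1, Lmo2, Fli1 and Runx1, chosen by name and found in a count table of 13305 genes. All 10 were found, and none was removed by a filter on low counts. RNA was sequenced from whole bone marrow (BM) of C57BL/6N mice of a model of acute myeloid leukemia (AML), with the same engineered background in every group. It consists of the Mx1-Cre transgene, 1 deleted allele of Dnmt3a (Dnmt3a+/-), a DNA methyltransferase, and an internal tandem duplication on both alleles of the receptor kinase Flt3 (Flt3ITD/ITD). The groups differed in the adaptor protein Gab2, with 3 AML WT mice (Gab2+/+), 2 AML HET mice (Gab2+/-) and 3 AML KO mice (Gab2-/-), and the comparisons ask how the dose of Gab2 alters BM of this model. The paper reports few blasts in the blood of AML HET mice and hardly any in that of AML KO mice. AML WT mice had anemia and fewer thrombocytes than AML KO mice. By flow cytometry of BM from AML mice, the paper also reports an effect of Gab2 deficiency on progenitors. The share of granulocyte-monocyte progenitors was lower and that of megakaryocyte-erythroid progenitors higher. The groups, all named AML, thus also differed in how far the disease had developed. Mx1-Cre is driven by an interferon-responsive promoter and was active without an inducing injection, so deletion of Dnmt3a was not timed, while Gab2 was absent from the germline onward and therefore also from non-leukemic cells. The age of the sequenced mice and any lysis of red cells before RNA extraction are not given in the sources used here, and mice without the Flt3 and Dnmt3a mutations were not analysed here.

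These factors build the erythroid and megakaryocyte lineages from a shared progenitor. Gata2 acts in stem and progenitor cells and is replaced by Gata1 on many DNA sites as differentiation proceeds, with Zfpm1 (also called Fog1) as the cofactor that binds Gata1 directly. Tal1, a basic helix-loop-helix protein, and the LIM-only bridging protein Lmo2 join Gata1 in one DNA-bound complex. Klf1 drives globin and red cell membrane genes and opposes the megakaryocyte fate, which the ETS factor Fli1 favours. Runx1 and Nfe2 are needed for megakaryocyte maturation and platelet release, and Gfi1b is a repressor needed in both lineages. Several of the factors also act outside these lineages: Gata1 in eosinophils and mast cells, Gata2 in mast cells and basophils, and Runx1, Fli1 and Lmo2 in hematopoietic progenitors more widely.

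Gata1, Klf1, Gfi1b and Tal1 are shown by the sequence before a transcription start, since these members were called between AML KO and AML WT BM and, apart from Gata1, hold the letters of a GATA site there. The sequences are the 250 bases upstream of a RefSeq start on GRCm38.p6, 5′ to 3′ on the gene's own strand. Capitals mark GATA letters (AGATAA or AGATAG or TGATAA or TGATAG) and the letters CCNCNCCC, the loose form of the CACC site bound by Klf and Sp factors, each on either strand. The Gata1 window is chrX:7967911-7968160 on the minus strand and has CCNCNCCC letters at 3 places but no GATA letters. It lies inside the GENCODE span of Gata1 given below, so it does not show the sequence before the 5′ end of that span. The Klf1 window is chr8:84901732-84901981 on the plus strand, and its GATA letters begin at base −80, counted from the start. The Gfi1b window is chr2:28621983-28622232 on the minus strand, with GATA letters at −120. The Tal1 window is chr4:115056176-115056425 on the plus strand, before the upstream one of the Tal1 starts listed, with GATA letters at −205.
Gata1: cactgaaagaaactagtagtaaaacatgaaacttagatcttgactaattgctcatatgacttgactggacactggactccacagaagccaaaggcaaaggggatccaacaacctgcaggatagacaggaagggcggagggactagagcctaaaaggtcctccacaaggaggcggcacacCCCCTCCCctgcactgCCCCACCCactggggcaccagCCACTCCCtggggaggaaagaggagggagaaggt
Klf1: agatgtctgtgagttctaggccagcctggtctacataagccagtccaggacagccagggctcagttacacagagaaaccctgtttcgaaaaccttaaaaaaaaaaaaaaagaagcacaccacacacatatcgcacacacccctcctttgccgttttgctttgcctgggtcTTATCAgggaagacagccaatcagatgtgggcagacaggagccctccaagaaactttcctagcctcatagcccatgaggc
Gfi1b: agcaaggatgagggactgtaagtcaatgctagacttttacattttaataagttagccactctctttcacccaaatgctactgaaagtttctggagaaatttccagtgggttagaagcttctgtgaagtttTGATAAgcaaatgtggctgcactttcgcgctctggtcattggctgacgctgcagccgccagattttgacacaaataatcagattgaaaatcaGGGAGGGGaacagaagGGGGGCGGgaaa
Tal1: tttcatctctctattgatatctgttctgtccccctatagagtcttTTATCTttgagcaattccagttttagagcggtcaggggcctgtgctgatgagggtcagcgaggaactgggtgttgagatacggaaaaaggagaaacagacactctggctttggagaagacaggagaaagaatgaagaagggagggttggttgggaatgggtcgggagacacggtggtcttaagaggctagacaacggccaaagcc

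RefSeq windows of 300 bases, reaching 50 bases past the start, were found for 7 of the 10 members (10 windows), and Nfe2, Lmo2 and Fli1 had no entry. GATA letters were in 3 of these 10 windows, each of a different member, and in 29.8% of all 32851 windows in the table. CCNCNCCC was in 8 of 10 windows, from all members but Klf1, and in 49.5% of all windows, whereas the stricter CCACACCC, which is contained in CCNCNCCC, was in 0 of 10 and in 3.56%. E box letters (CAGCTG or CAGATG) were in 3 of 10 windows, of Gata2, Klf1 and Tal1 (30.6% of all windows), ETS letters (CCGGAA or AGGAAG) in 3, of Gata1 and Runx1 (45.2%), Runx letters (TGTGGT or TGCGGT) in 2, of Klf1 and Runx1 (22.4%), and TGAGTCA, the core of the Nfe2 site, in 0 of 10 (5.20%). These matches describe letters and not bound sites.

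On GRCm38, GENCODE M21 places Gata1 at chrX:7959260-7978071 and Klf1 at chr8:84901928-84905291, with Zfpm1 on the same chromosome at chr8:122282141-122337251. Gata2 lies at chr6:88193891-88207032, Tal1 at chr4:115056426-115071755, Gfi1b at chr2:28609450-28621982 and Lmo2, also on chromosome 2, at chr2:103957986-103981878. Nfe2 lies at chr15:103248212-103258403, Fli1 at chr9:32422204-32542861 and Runx1 at chr16:92601466-92826149.

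Depth ranged from 28009258 to 39266815 counts per library (median 32049876.5). Levels are given as CPM, counts scaled to a common library size by the TMM method of edgeR, whose factors ranged from 0.928 to 1.036. Gab2 was read at 93.9, 68.5 and 61.6 CPM in AML WT, 55.8 and 50.8 in AML HET and 35.0, 47.2 and 40.2 in AML KO BM. No group overlapped with another, in the order of the labels. In AML KO mice a cassette replaces only part of the Gab2 exons, and which exons the remaining counts come from was not tested. At −0.87 ± 0.18 (log2 fold change and its standard error, SE), AML KO differed from AML WT in the quasi-likelihood test of edgeR, adjusted by the Benjamini-Hochberg method over all genes (adjusted p = 0.0420), which is the test used throughout, although it did so in only 2 of 8 fits that left out 1 mouse each. The labels do not say which mice shared a litter or day, although the paper calls AML WT mice littermates of the AML KO mice. The test treats all mice as independent, so its p-values measure the spread between these 8 mice and leave out any shared litter.

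Compared with AML WT BM, AML KO BM had higher levels of Gata1, Klf1, Gata2, Gfi1b, Tal1 and Zfpm1, which were raised between 2.26-fold and 11.6-fold in group means. Nfe2 and Lmo2 were higher in every AML KO mouse than in every AML WT mouse without passing the test, and Fli1 and Runx1 overlapped between the groups. Of the 10 members, 6 had an adjusted p under 0.05, all of them higher in AML KO. Across all 13305 genes, 2.09% were called and 1.77% were called and higher. The median log2 fold change of the members was 1.20, beside −0.02 over all genes. Every AML KO mouse lay above every AML WT mouse for 8 members and for 12.3% of all genes. The count of 6 calls depended on single mice: it was 0 without AML WT replicate 2, where the adjusted p of the 6 lay between 0.0579 and 0.155 by edgeR, and 3 without AML WT replicate 1, AML WT replicate 3, AML KO replicate 1 or AML KO replicate 3. In bulk BM, fewer cells of a type and less RNA per cell cannot be told apart, which holds for each level that follows.

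**Figure D1:**
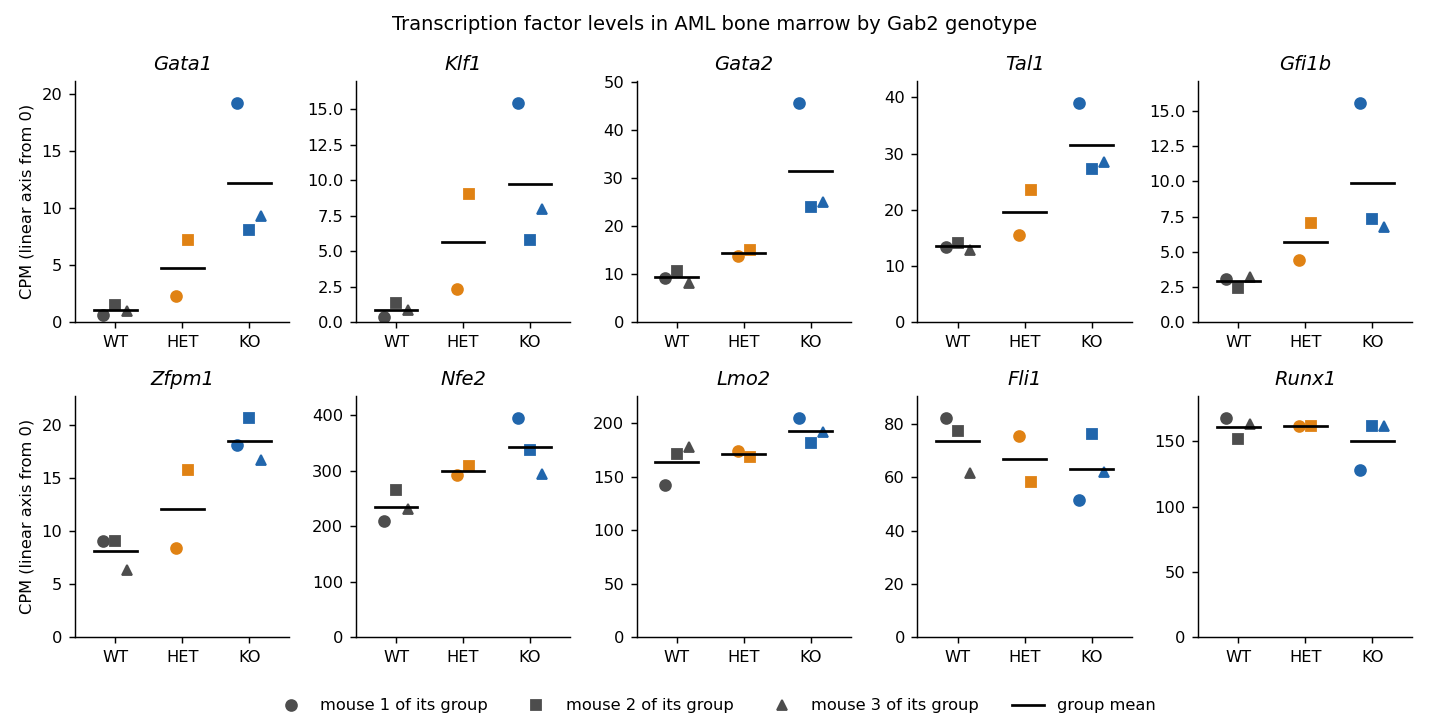
Level of each of the 10 factors in CPM (linear axes from 0, each with its own range) in the 8 mice, with symbols for the mouse number and a line at the group mean. For Gata1, Klf1, Gata2, Tal1, Gfi1b and Zfpm1 all 3 AML KO mice lie above all 3 AML WT mice with AML KO mouse 1 the highest except for Zfpm1, whereas the groups overlap for Fli1 and Runx1.

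The GATA factors and their cofactor were all raised. Gata1, the master regulator of both lineages, was at 0.639, 1.55 and 0.980 CPM in AML WT mice, at 2.35 and 7.17 in AML HET mice and at 19.2, 8.08 and 9.34 in AML KO mice. These levels rest on 26 to 49 counts per AML WT library and on 222 to 587 per AML KO library, and no group overlapped with another. The group mean was 1.06 ± 0.460 CPM (SD, n = 3) in AML WT and 12.2 ± 6.09 (SD, n = 3) in AML KO BM, with a log2 fold change of 3.54 ± 0.53 (SE, with an adjusted p of 0.0127 by edgeR). Gata2, which maintains progenitors and precedes Gata1, was at 9.20, 10.7 and 8.21 CPM in AML WT, 13.7 and 15.0 in AML HET and 45.7, 24.1 and 25.0 in AML KO mice. No group overlapped with another here either, and AML KO mouse 1 stood well above the other two. The log2 fold change of Gata2 was 1.76 ± 0.25 (SE, with an adjusted p of 0.0102 by edgeR), with a 95% interval of 1.19 to 2.32. Zfpm1, the cofactor of Gata1, was at 9.07, 9.10 and 6.37 CPM in AML WT, 8.45 and 15.7 in AML HET and 18.1, 20.7 and 16.7 in AML KO mice. The AML KO mice lay above all others, while AML HET mouse 1 lay within the AML WT range. Its log2 fold change was 1.18 ± 0.25 (SE, with an adjusted p of 0.0457 by edgeR), the call closest to the threshold, and it passed in only 2 of the 8 fits that left out a mouse.

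Klf1, the erythroid Krüppel-like factor, was at 0.393, 1.36 and 0.888 CPM in AML WT, 2.31 and 9.02 in AML HET and 15.4, 5.82 and 7.96 in AML KO mice. Both other groups lay above AML WT, but AML HET mouse 2 lay above 2 of the 3 AML KO mice. In AML WT libraries Klf1 had 16 to 43 counts. Klf1 in AML KO against AML WT had a log2 fold change of 3.48 ± 0.63 (SE, with an adjusted p of 0.0233 by edgeR), with a 95% interval of 2.08 to 4.89. The call held in 3 of the 8 fits without 1 mouse, with an adjusted p of up to 0.0794 without AML WT replicate 2 and a log2 fold change of at least 2.98 in each.

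Of the complex that Gata1 enters, Tal1 was raised and Lmo2 was not called. Tal1, the E box-binding member, was at 13.4, 14.2 and 12.9 CPM in AML WT, 15.6 and 23.5 in AML HET and 38.98, 27.3 and 28.5 in AML KO mice, with no overlap between any 2 groups. Its log2 fold change was 1.23 ± 0.20 (SE, with an adjusted p of 0.0156 by edgeR). Lmo2, the bridge between Tal1 and Gata1, was at 142, 172 and 178 CPM in AML WT, 174 and 169 in AML HET and 205, 182 and 192 in AML KO mice. Its AML KO mice lay just above the rest, with a log2 fold change of 0.24 (95% interval −0.04 to 0.51, adjusted p = 0.328, edgeR), and the interval leaves out a change as large as that of Tal1. A list of 24 complex partners, among them the Lmo2 binder Ldb1, the Runx1 partner Cbfb and the small Maf proteins that pair with Nfe2, was measured in full, and 0 of 24 were called in AML KO BM by edgeR, DESeq2 or limma-voom, with 3 at an unadjusted p under 0.05. Their median log2 fold change was −0.02, with 12 higher and 12 lower, and the range ran from −0.58 for the acetyltransferase Ep300 to 0.36 for Ldb1.

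Gfi1b, a zinc finger repressor of erythroid and megakaryocyte cells, was at 3.07, 2.43 and 3.21 CPM in AML WT, 4.42 and 7.04 in AML HET and 15.6, 7.32 and 6.75 in AML KO mice. AML WT mice were the lowest without overlap, and AML HET mouse 2 lay between AML KO mice 2 and 3. The log2 fold change was 1.76 ± 0.35 (SE, with an adjusted p of 0.0374 by edgeR), a call that held in only 1 of the 8 fits without 1 mouse. Its relative Gfi1, which acts in granulocytes and stem cells, was also higher in AML KO BM, with a log2 fold change of 0.69 ± 0.13 (SE, with an adjusted p of 0.0268 by edgeR). Gfi1 was the 1 gene called by edgeR among 23 measured family relatives of the members, and its call held in 1 of the 8 fits without 1 mouse. The relatives include Gata3, other Klf, Nfe2-like, ETS and Runx genes, and their median log2 fold change was −0.02. Among them 4 had an unadjusted p under 0.05, DESeq2 called 2 and limma-voom called 1.

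The megakaryocyte-side factors Nfe2, Fli1 and Runx1 were not called. Nfe2, which controls platelet release, was at 209, 266 and 232 CPM in AML WT, 292 and 308 in AML HET and 395, 337 and 294 in AML KO mice. Both other groups lay above AML WT, and the log2 fold change of 0.54 ± 0.14 (SE, with an adjusted p of 0.107 by edgeR) was called by DESeq2 (adjusted p = 0.0181). Fli1, an activator of platelet glycoprotein genes, was at 82.3, 77.2 and 61.5 CPM in AML WT, 75.3 and 58.1 in AML HET and 51.5, 76.0 and 61.8 in AML KO mice. All its groups overlapped, and its log2 fold change was −0.22 (95% interval −0.63 to 0.18, adjusted p = 0.501, edgeR). Runx1, required for blood stem cell emergence and megakaryocyte maturation, was at 168, 152 and 164 CPM in AML WT, 162 in both AML HET and 128, 162 and 161 in AML KO mice. AML KO mouse 1, the mouse with the highest Gata1, had the lowest Runx1, and the other 7 mice lay between 152 and 168 CPM. The log2 fold change of Runx1 was −0.10 (95% interval −0.38 to 0.18, adjusted p = 0.669, edgeR), and 0.881% of its exon bases are shared with the antisense gene Gm26626, which is not in the count table.

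**Figure D2:**
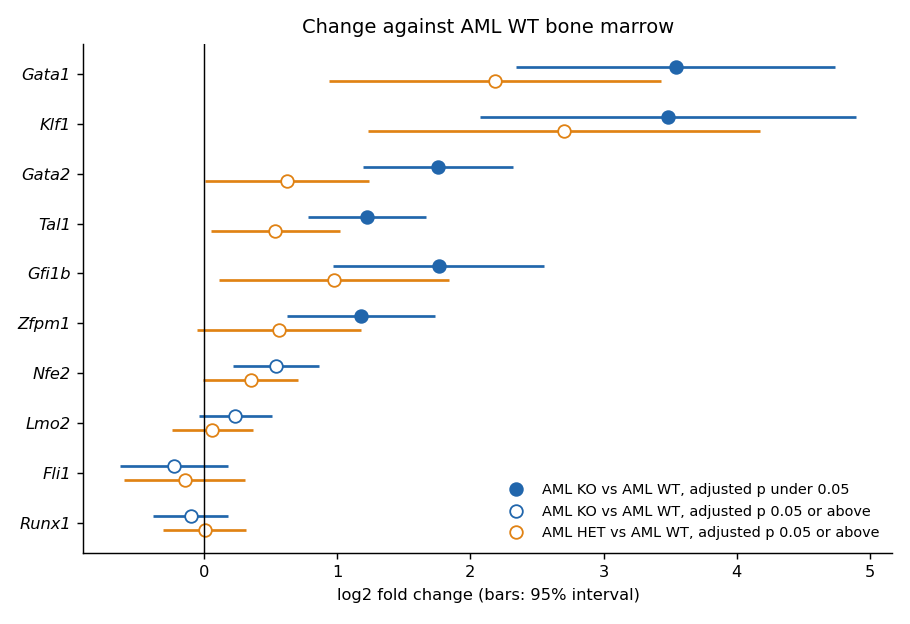
Log2 fold change against AML WT BM of each factor in AML KO (blue) and AML HET (orange) mice from edgeR, with bars for the 95% interval and filled points for an adjusted p under 0.05. The 6 filled points run from 1.18 for Zfpm1 to 3.54 for Gata1, while the intervals for Lmo2, Fli1 and Runx1 cross 0 in both comparisons.

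The dose of Gab2 was examined with the 2 AML HET mice. Between AML HET and AML WT BM 0 of 10 members were called by edgeR, with 5 at an unadjusted p under 0.05, and over all genes 0.0225% were called, with 329 at an unadjusted p under 0.05. DESeq2 called 2 members, Klf1 (adjusted p = 0.00588) and Gata1 (adjusted p = 0.0162), among 59 of all genes, and limma-voom called 0 members. The 5 members were Klf1, with a log2 fold change of 2.70 (95% interval 1.23 to 4.17), Gata1 with 2.18 (0.94 to 3.43), Gfi1b with 0.98, Gata2 with 0.62 and Tal1 with 0.54. Both AML HET mice lay above every AML WT mouse for 6 members, these 5 and Nfe2, and for 9.53% of all genes. These values depended on AML HET replicate 2: without it, the log2 fold changes against AML WT were 1.41 for Klf1, 1.16 for Gata1, 0.60 for Gfi1b and 0.21 for Tal1, while Gata2 was at 0.56.

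Between AML KO and AML HET BM 0 members were called by edgeR, 0 by limma-voom and 1 by DESeq2, Gata2 (adjusted p = 0.0263). At an unadjusted p under 0.05 there were 3, which were Gata2 with a log2 fold change of 1.14, Tal1 with 0.69 and Gata1 with 1.36. Over all 13305 genes edgeR called 0 (0.0%), with 780 at an unadjusted p under 0.05, limma-voom called 0 and DESeq2 called 77. Every AML KO mouse lay above both AML HET mice for 5 members, Gata1, Gata2, Tal1, Zfpm1 and Lmo2, and for 13.2% of all genes. Against the midpoint of AML WT and AML KO, 0 members were called for AML HET by edgeR, DESeq2 or limma-voom, with 0 at an unadjusted p under 0.05 and 0.00752% of all genes called. The estimates were 0.96 for Klf1 (95% interval −0.25 to 2.18), 0.41 for Gata1 (−0.65 to 1.48) and −0.26 for Gata2 (−0.82 to 0.30), so that places well off the midpoint lie within the intervals of each. Leaving out 1 mouse moved these from −0.33 to 1.63 for Klf1 and from −0.61 to 1.00 for Gata1, so the side of the midpoint depended on single mice, and from −0.33 to −0.08 for Gata2.

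The target genes of the factors were counted in lists of red cell and platelet genes, which share no gene with the 10 members. Of 31 measured erythroid targets, such as globins, heme synthesis enzymes and membrane proteins, 22 were called and higher in AML KO than in AML WT BM and 0 were lower, with a median log2 fold change of 2.98. The largest were those of Tspo2, a translocator protein of erythroid cells (4.34, adjusted p = 0.0160, edgeR), the carbonic anhydrase Car1 (4.11, adjusted p = 0.0186), the membrane skeleton gene Epb42 (3.92, adjusted p = 0.0156) and the Rh-associated glycoprotein Rhag (3.91, adjusted p = 0.0163). Of 26 megakaryocyte targets, 19 were called, all higher, with a median of 2.20. These were led by the platelet chemokines Pf4 (3.99, adjusted p = 0.00206, edgeR) and Ppbp (3.44, adjusted p = 0.000882) and by Gp1bb (3.84, adjusted p = 0.00472) and Gp5 (3.67, adjusted p = 0.00192) of the von Willebrand factor receptor. Without AML WT replicate 2 the calls fell to 0 of 31 erythroid and 12 of 26 megakaryocyte targets, and the erythroid count also fell to 1 without AML WT replicate 1, to 12 without AML KO replicate 1 and to 11 without AML KO replicate 3, while the megakaryocyte count was 17 to 19 without any other mouse. Near-identical copies in the erythroid list, Hba-a1 with Hba-a2 and Hbb-bs with Hbb-bt, can share reads, so their single values are uncertain and are not given.

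Mouse by mouse, the lists and the factors were placed differently in AML HET mice. The erythroid targets had a median log2 difference from the AML WT mean of 1.04 and 2.89 in AML HET mice 1 and 2 and of 3.64, 2.41 and 2.68 in the AML KO mice. AML HET mouse 2 thus lay inside the AML KO range for erythroid targets, as it did for Klf1 at 3.50 beside 4.28, 2.87 and 3.32. For Gata1 it lay below that range, at 2.84 beside 4.25, 3.01 and 3.22. The megakaryocyte targets had medians of 0.38 and 0.68 in AML HET and of 2.20, 2.19 and 2.06 in AML KO mice. Here both AML HET mice lay well below all AML KO mice, as they did for Gata2 at 0.56 and 0.69 beside 2.30, 1.37 and 1.43. For Gfi1b, at 0.61 and 1.28 beside 2.42, 1.34 and 1.22, AML HET mouse 2 lay inside the AML KO range. Gata1 and Gfi1b act in both lineages and Gata2 in progenitors, so these factors stand for neither list alone. Whether AML HET mouse 2 lay inside the AML KO range for Gata1 or Gfi1b rests on small margins in 1 mouse. As group values against AML WT, the erythroid targets had a median log2 fold change of 2.20 in AML HET and 2.98 in AML KO, and the megakaryocyte targets 0.63 and 2.20. In both comparisons with AML HET BM edgeR and limma-voom called 0 targets of either list. At an unadjusted p under 0.05, 23 of 31 erythroid and 11 of 26 megakaryocyte targets differed between AML HET and AML WT, and 1 and 23 between AML KO and AML HET. DESeq2 called 14 erythroid and 4 megakaryocyte targets between AML HET and AML WT and 0 and 19 between AML KO and AML HET. These comparisons share mice, and the difference between the lists was not tested.

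**Figure D3:**
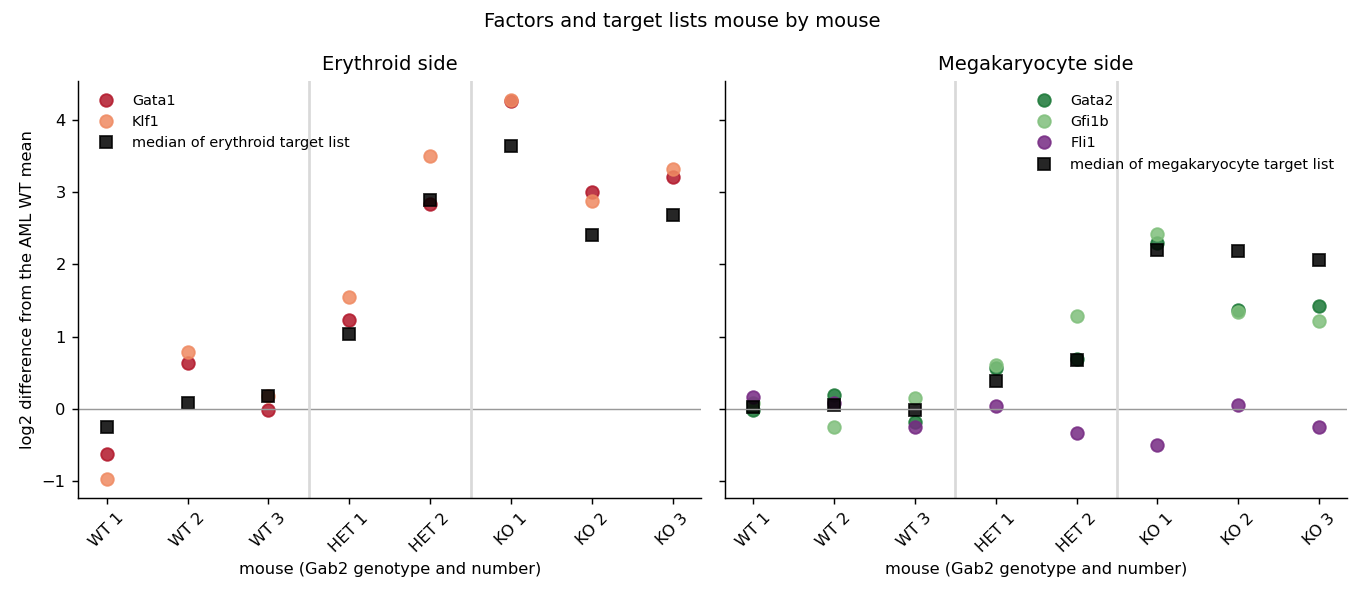
Log2 difference from the AML WT mean in each of the 8 mice for Gata1, Klf1 and the median of the erythroid targets (left) and for Gata2, Gfi1b, Fli1 and the median of the megakaryocyte targets (right). AML HET mouse 2 lies at 2.89 for the erythroid median, inside the AML KO range of 2.41 to 3.64, but at 0.68 for the megakaryocyte median, below the AML KO range of 2.06 to 2.20.

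Other lineage regulators, a list of 20 genes, gave 2 calls in AML KO BM, both higher but neither of them without AML WT replicate 2, and a median log2 fold change of 0.04. Sox6, which cooperates with these factors in globin switching, was at 0.320, 0.759 and 0.490 CPM in AML WT, 1.12 and 3.06 in AML HET and 5.56, 3.06 and 3.06 in AML KO mice. Its log2 fold change was 2.91 ± 0.49 (SE, with an adjusted p of 0.0174 by edgeR).

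Markers of other cells that use Gata1, Gata2, Runx1 or Fli1 moved in part with the members. Of 12 basophil and mast cell markers 6 were measured and 4 were called, all higher, with a summed level of 54.0 to 71.8 CPM in AML WT, 101.2 to 108.6 in AML HET and 188 to 318 in AML KO BM. They were the basophil protease Prss34 with a log2 fold change of 4.24 (adjusted p = 0.00640, edgeR), the IgE receptor chain Ms4a2 with 2.49 (adjusted p = 0.00988), Mcpt8 with 1.33 (adjusted p = 0.0453) and Hdc with 1.26 (adjusted p = 0.00884). Fcer1a and the mast cell proteases Cma1, Mcpt4, Tpsb2 and Tpsab1 are not among the 13305 genes. Of 9 eosinophil markers 5 were measured and 2 called, Epx (3.26, adjusted p = 0.0247, edgeR) and Prg2 (3.19, adjusted p = 0.00698), and the summed level was 53.8 to 91.4 CPM in AML WT, 58.6 to 62.2 in AML HET and 63.3 to 92.1 in AML KO BM. Of the others, Ear2 had a log2 fold change of −0.94 (adjusted p = 0.0707, edgeR), with every AML KO mouse below every AML WT mouse, and Siglecf one of 0.18. Epx, which defines the lineage, was at 1.36 to 2.06 CPM in AML KO mice and at 0.0246 to 0.348 in AML WT mice. Its AML WT levels rest on 1, 11 and 6 counts, and its call held in only 2 of the 8 fits without 1 mouse. Genes are present only with at least 106 counts over the 8 mice. With 20 and 16 counts in AML HET mice, Epx is present only through its AML KO counts, so its call is not independent evidence.

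Of 10 stem and progenitor markers 2 were called, Slamf1 (2.22, adjusted p = 0.0265, edgeR) and Cd34 (0.74, adjusted p = 0.0277), and the list summed to 450 to 499 CPM in AML WT, 462 to 543 in AML HET and 582 to 679 in AML KO BM. Slamf1, with 12, 10 and 20 counts in AML WT and 13 and 31 in AML HET mice, is likewise present only through its AML KO counts. Of 11 measured endothelial markers, which bear on Fli1, Tal1, Lmo2 and Gata2, 0 were called by edgeR (2 at an unadjusted p under 0.05, 2 by DESeq2), and the sums of 68.0 to 75.7 CPM in AML WT, 58.8 to 65.2 in AML HET and 64.4 to 105 in AML KO BM overlapped. Neutrophil markers were higher, 6 of 10 called with a median log2 fold change of 2.16 and sums of 1279 to 4669 CPM in AML WT, 5376 to 6050 in AML HET and 10403 to 17056 in AML KO BM. Monocyte markers, at a median of −0.30, had 0 of 8 called by edgeR (2 at an unadjusted p under 0.05, 0 by DESeq2) and sums of 6558 to 9266 CPM in AML WT, 6394 to 6451 in AML HET and 4797 to 7538 in AML KO BM. By edgeR 0 of 9 B cell markers (0 unadjusted, 0 by DESeq2) and 0 of 10 T and NK cell markers (3 unadjusted, 1 by DESeq2) were called, and they summed to 39.04 to 90.4 and 93.3 to 139 CPM over all mice. Without AML WT replicate 2, the calls fell to 0 for the basophil and mast cell, stem and progenitor and neutrophil markers and to 1 for the eosinophil markers. The part of these other cells in the levels of the factors was not tested.

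Ratios of factors within a library hardly depend on its scaling, and 4 were compared. Gata1 to Gata2, the pair that exchanges during differentiation, had log2 ratios of −3.81, −2.77 and −3.05 in AML WT, −2.54 and −1.06 in AML HET and −1.25, −1.57 and −1.42 in AML KO mice. In AML KO BM Gata1 counts were thus 0.375 of Gata2 counts as a geometric mean, beside 0.108 in AML WT BM, a log2 difference of 1.79, and AML HET mouse 2 had the highest ratio of all. Gata1 to Spi1, the myeloid factor that opposes it, differed by 3.43 on the log2 scale, from −8.40 ± 0.44 (SD, n = 3) to −4.97 ± 0.80 (SD, n = 3). Spi1 itself was at 282 to 412 CPM in all mice, with a log2 fold change of 0.06 (95% interval −0.28 to 0.41). Klf1 to Fli1, opposed in the choice between erythroid and megakaryocyte fate, differed by 3.72, and Gfi1b to Gfi1 by 0.98. All 3 AML KO mice lay above all 3 AML WT mice in each of the 4 ratios, which gives the smallest two-sided p that an exact permutation test of 3 against 3 mice allows, 0.1, also 0.1 after Benjamini-Hochberg adjustment over 4 ratios. The numerators Gata1, Klf1 and Gfi1b had each been higher in every AML KO mouse on their own, so the ratios are not separate evidence.

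**Figure D4:**
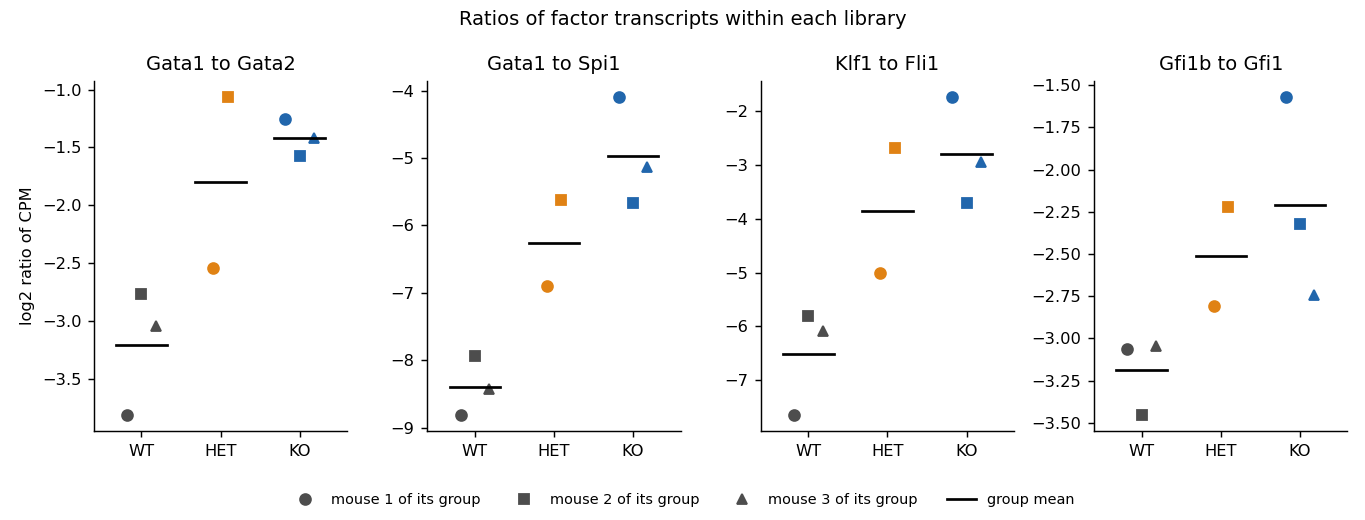
Log2 ratio of CPM between 2 factors in each of the 8 mice, with a line at the group mean and axes that differ between panels. The AML KO mice lie above the AML WT mice in all 4 panels, by 1.79, 3.43, 3.72 and 0.98 between group means, and AML HET mouse 2 has the highest Gata1 to Gata2 ratio.

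Levels were compared between the factors per length, as CPM divided by the kilobases of all annotated exons (RPKM). In AML WT BM, Nfe2 (78.8 ± 9.60 RPKM, SD, n = 3) and Lmo2 (75.7 ± 8.86) were the highest and overlapped, followed without overlap by Fli1 (21.1 ± 3.10), Runx1 (13.4 ± 0.689) and Tal1 (3.08 ± 0.149). Zfpm1 (2.34) overlapped with Gata2 (1.73), and Gata2 with Gfi1b (1.59). Below them and without overlap, Klf1 (0.575 ± 0.316) and Gata1 (0.433 ± 0.188) were the lowest and overlapped as well. In AML KO BM the 4 highest kept this order, at 114.5, 89.1, 18.1 and 12.5 RPKM, and the other 6 lay between 5.01 for Gata1 and 7.21 for Tal1, each overlapping with its neighbours. On this length, the range from Gata1 to Tal1 in group means narrowed from 0.433 to 3.08 RPKM in AML WT to 5.01 to 7.21 RPKM in AML KO BM. With the longest transcript as the length, Runx1 ranked above Fli1 in all 3 groups, and the lower 6 in AML KO BM ran from 5.42 RPKM for Gfi1b to 8.85 for Gata2, with Gata1 at 6.42.

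The genes most like a member across the 8 mice were found by the root mean square (RMS) difference of log2 CPM after centring each gene on its own mean. For Gata1 these included Apol8 (0.183) and 1300017J02Rik (0.263), where the median over all genes was 1.66, and Klf1 followed in the fourth place (0.281). For Klf1 they were Trim10 (0.113), a gene of terminal erythroid cells, the dematin gene Dmtn (0.154) and Apol8 (0.187), beside a median of 1.74. For Gata2 they included the keratin gene Krt18 (0.215) and Tmem40 (0.220), beside 0.829. For Runx1 they were Ctns (0.040), P2ry1 (0.048) and Ak3 (0.048), beside 0.263, which are genes that hardly varied between the mice. Among pairs of members, Fli1 and Runx1 (0.182), Nfe2 and Lmo2 (0.182) and Tal1 and Zfpm1 (0.227) had the smallest differences. Genes that vary little lie close to most genes by this measure. The medians over all genes were 0.321 for Fli1, 0.263 for Runx1, 0.367 for Nfe2 and 0.282 for Lmo2. Gata1 and Klf1, at 0.281, lay much further below their medians of 1.66 and 1.74.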

How the data were processed

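Whole BM RNA of 8 mice gave 1 library each. The deposited values are raw counts for each gene, which the authors made from reads trimmed with Trimmomatic 0.36 and aligned to mm10 with STAR 2.5.2b according to the submitters' processing notes. The counting program, the annotation and the use of strand are not given in the sources used here. The table holds only genes with at least 106 counts over the 8 mice, so genes with fewer are absent from it. Some listed genes, among them Epx, Slamf1, Gp6 and Cd200r3, passed this floor only through their AML KO counts. Their places in the lists thus favour higher levels in AML KO. Identifiers were matched to GENCODE M21 (GRCm38, the same assembly as mm10), where 13266 of 13305 were found.

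Counts were analysed with edgeR 4.0.16 and limma 3.58.1 in R 4.3.3: TMM scaling, a robust quasi-likelihood fit to the 8 mice with Gab2 genotype as its one term, and Benjamini-Hochberg adjustment over 13305 genes at a threshold of 0.05. Standard errors and 95% intervals were derived from the F statistic. CPM use TMM library sizes, and log2 ratios a prior count of 0.5. Tested on simulated counts, the AML KO to AML WT comparison recovered 91 of 100 genes changed 4-fold, 57 of 100 changed 2-fold, and called 16 of 13105 unchanged genes. These 16 made up a larger share of the calls than the 0.05 at which the threshold aims. Each gene was drawn on its own there, so differences between mice that many genes share were not simulated. Counting intervals cover counting error only. Alternatives were DESeq2 1.42.0, limma-voom, other scalings and filters, the compared groups alone, the replicate number as a block and each mouse left out.

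All 10 members, Gab2, the ratio partners, the called genes of a list that changed most (up to 4) and the 3 genes most like Gata1, Klf1, Gata2 and Runx1 were named. Some genes that this rule would name are not reported here. Ldb1 and the pairs of like members were named after their values were seen. Members and lists were chosen with earlier results of these data known. Python 3.11.15 with scipy 1.17.1, pandas 2.3.3 and matplotlib 3.10.9 was used for tables and plots.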

Additional observations from a re-analysis of the deposited data

How the results depend on the processing

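Between AML KO and AML WT BM, 6 members were called, and 5 to 7 by DESeq2 (7), limma-voom (5), other scalings (5 or 6) and the 2 groups alone (5). Only 3 were called with at least 50 counts in every mouse, a filter that removes Gata1 and Klf1, and 0 to 5 when 1 mouse was left out, with 0 without AML WT replicate 2, where the adjusted p of the 6 was 0.0579 to 0.155. None of the 6 changed direction in any fit. Where edgeR called 0, DESeq2 called 2 members in AML HET against AML WT BM and 1 in AML KO against AML HET BM. Over all genes, the count of 278 became 730 with DESeq2, 151 with at least 50 counts, and 40 (without AML WT replicate 2) to 370 (without AML KO replicate 2).

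With the replicate number as a replicate block, 0 members and 19 of all genes were called between AML KO and AML WT. Same-numbered AML WT and AML KO mice had correlations of −0.51, −0.11 and −0.13 in their deviations from the group means, over genes. Those of AML WT with AML HET mice were 0.08 and 0.29, and those of AML HET with AML KO mice −0.14 and −0.04. Deviations cancel out within each small group, so these values cannot show whether same-numbered mice were paired.

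Among the members' log2 fold changes between groups, signs turned for Runx1, Fli1 and Lmo2. Leaving out 1 mouse moved the log2 fold change of Runx1 from −0.16 to 0.0055 (AML KO against AML WT), −0.035 to 0.039 (AML HET against AML WT) and −0.17 to 0.0052 (AML KO against AML HET). That of Fli1 moved from −0.34 to 0.031 (AML HET against AML WT) and −0.25 to 0.12 (AML KO against AML HET), and that of Lmo2 from −0.027 to 0.14 (AML HET against AML WT). Scaling by total counts gave Runx1 −0.0092 in AML HET. The cause was not tested. The 4 ratios kept their direction without any 1 mouse and with a prior count of 5, from 0.66 for Gfi1b to Gfi1 to 4.17 for Klf1 to Fli1. The lowest counts of Klf1 and Gata1 in an AML WT mouse were 16 and 26.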
